A study of Homo sapiens with 9 samples.

Results

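The genes described here are the ZNF zinc finger genes as measured in MCF10A, a line of human mammary epithelial cells that are not transformed. A gene was included when its symbol consists of ZNF, a number and at most 1 letter, and when its 3′ interval with most reads had a mean of at least 5 CPM (reads scaled to library size) over the 3 libraries made without 4-thiouridine (4sU). Of 515 such symbols in the table, 130 met this floor, out of 25801 genes in all. The remaining 385 lay below it, 96 of them listed at 0 in all 3 libraries. Directly below the floor were ZNF550 (4.94 CPM), ZNF641 (4.91 CPM) and ZNF875 (4.76 CPM), and directly above it were ZNF337 (5.00 CPM), ZNF776 (5.09 CPM) and ZNF557 (5.13 CPM). The CPM without 4sU thus chose the genes, and the conversion rates did not. The expression with which the symbol was matched takes genes by name only, so it also holds ZNF204P and ZNF271P, which GENCODE annotates as pseudogenes, ZNF252P, annotated as a long non-coding RNA, and ZNF185, which codes for a LIM domain protein of the actin cytoskeleton.

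The study used thiol(SH)-linked alkylation for metabolic sequencing of RNA (SLAM-Seq) to ask which mRNAs depend on the transcription factor JUN. JUN knockout MCF10A cells carried JUN fused to an auxin-inducible degron together with TIR1, the plant receptor that directs the fusion to degradation on addition of the auxin IAA (indole-3-acetic acid), and all groups shared this background. The control group, with 3 libraries, received no 4sU, and the labels do not state its solvent. The DMSO 4sU group, with 3 libraries, received DMSO for 1 h and then 100 µM 4sU for another 1 h. The IAA 4sU group was treated likewise with 100 µM IAA in place of DMSO. Its 3 columns held identical values in all 56868 rows of the table, so they were counted as 1 library, and the 7 distinct libraries held between 18997637 and 24014195 reads. JUN protein was not measured in these files, and the level of a transgenic mRNA does not check its degradation. Markers of basal mammary epithelium summed to between 3563 and 4632 CPM per library, although KRT14 reached only 3.63 to 10.6 CPM. Markers of other cell types summed to between 3.58 and 10.3 CPM. Of these, PTPRC and CD3E were at 0 throughout, whereas the fibroblast marker COL1A1 had 3.21 to 9.82 CPM, near the range of KRT14.

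Most proteins of this family carry arrays of zinc fingers that read DNA. A large branch joins them to a KRAB domain, which recruits the co-repressor TRIM28 and, through it, the histone methyltransferase SETDB1, and these proteins are best known for keeping transposable elements silent. KRAB genes arose by repeated duplication and stand in clusters, above all on chromosome 19. In SLAM-Seq, 4sU enters the RNA that is made during the pulse, alkylation makes it read as C, and the share of T positions read as C, the T>C conversion rate, is therefore high for an mRNA of which much was made within the pulse. An mRNA that is replaced quickly reaches a higher rate than one that persists from before the pulse.

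Without 4sU, the ZNF genes did not stand apart. Their median conversion rate was 0.0559%, 0.0533% and 0.0484% in the 3 libraries, close to the 0.0570%, 0.0569% and 0.0593% of all 8540 genes at or above the same floor. With DMSO and 4sU it was 0.834%, 0.644% and 0.595%, where all genes had 0.251%, 0.189% and 0.186%. The ZNF median was thus 3.33, 3.42 and 3.19 times the median of all genes, and with IAA and 4sU it was 3.04 times (0.704% against 0.232%). The plot of the median rate in the 7 libraries shows that every labelled library lay far above every unlabelled one.

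**Figure D1:**
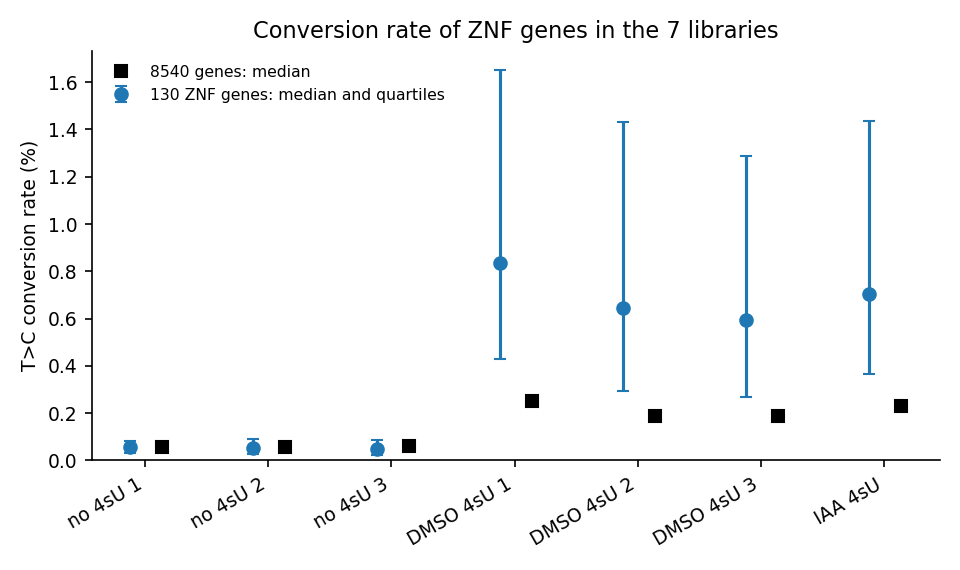
T>C conversion rate in percent (vertical axis) in each of the 7 libraries; circles with bars give the median and quartiles over the 130 ZNF genes and squares the median over 8540 genes. The medians coincide near 0.05% without 4sU, and with 4sU the ZNF median lies between 0.595% and 0.834%, above the 0.186% to 0.251% of all genes.

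The conversion rate rose with 4sU in 116 of the 130 genes (89.2%), whereas the same test called 58.3% of all genes higher (limma on log2(rate + 0.0005), adjusted p under 0.05 over 8540 genes, 3 libraries against 3). No ZNF gene was lower by limma, also at an unadjusted p under 0.05 (0 genes), against 0.0234% of all genes. In 114 of the 130 all 3 DMSO 4sU libraries lay above all 3 libraries without 4sU (68.3% of all genes), and in 112 the IAA library did so too (65.2% of all genes). The median change was 2.79 on the log2(rate + 0.0005) scale, against 1.18 over all genes. Per gene, the mean rate of the DMSO 4sU libraries had a median of 0.686% with quartiles of 0.379% and 1.42%, and it ranged from 0.0386% to 8.50%. The median depended on the floor. With 5 CPM required in the DMSO 4sU libraries instead, 93 ZNF genes met it and their median rate was 0.494%. Of the 130, 65 (50%) lay in the top 10% of all genes, which began at 0.686%, and 119 (91.5%) lay above the median of all genes, 0.218%. A mean rate above 2% was found for 24 ZNF genes (18.5%) and for 174 of all 8540 genes (2.04%).

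ZNF mRNAs were scarcer than most, with a median of 9.01 CPM against 21.7 CPM over all genes, and low abundance went with a higher rate. Between 5 and 20 CPM, 104 ZNF genes (median 8.05 CPM) had a median rate of 0.788% and 3905 other genes (median 10.5 CPM) one of 0.265%. At 20 CPM or more, 26 ZNF genes (median 38.0 CPM) had a median rate of 0.411% and 4505 other genes (median 45.1 CPM) one of 0.190%. The ZNF genes remained the scarcer within both classes, and the part of abundance in the difference was not tested. Across the 130 genes Spearman's rho between rate and CPM without 4sU was -0.35 (all genes -0.23), and between rate and interval length it was -0.0008 (all genes 0.18). These are descriptions across genes of the same libraries, which are not independent replicates.

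The order of the ZNF genes was similar from library to library, with Spearman's rho of 0.73, 0.81 and 0.77 between pairs of DMSO 4sU libraries over 130 genes that share each library's depth. The rate of a single gene was less exact, since the median coefficient of variation over the 3 libraries was 36.5%, or 23.2% at 20 CPM and above. The median ZNF gene had between 148 and 212 reads per library, and the lowest value was 16 reads. In 70 of the 130 genes replicate 1 had the highest of the 3 rates, and it also had the highest median over all genes.

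The highest rate belonged to ZNF92, a KRAB gene. A KRAB domain is mentioned as background and not for every gene that has one, and rates were not compared by it. ZNF92 (chr7:64838712-64866049, + strand, GRCh37) read 0%, 0.109% and 0.225% without 4sU and 4.62%, 12.8% and 8.05% with DMSO and 4sU. Its mean was 8.50% ± 4.13 (SD, n = 3; log2 change 5.92, SE 0.67, adjusted p = 0.00096, limma), and IAA gave 5.61%. The groups were far apart, but only 16 to 34 reads stood behind each labelled value, and the 3 labelled libraries differed widely. ZNF557 (chr19:7069714-7087979, + strand), a further KRAB gene, read 0%, 0.0939% and 0% without 4sU and 8.10%, 6.43% and 4.10% with it, a mean of 6.21% ± 2.01 (SD, n = 3; adjusted p = 0.00029), and IAA gave 7.16%. The most even of the top genes was ZNF267 (chr16:31885128-31928678, + strand), also of the KRAB branch. It read 0.0631%, 0.204% and 0% without 4sU and 4.85%, 3.69% and 4.43% with DMSO and 4sU, a mean of 4.32% ± 0.587 (SD, n = 3; adjusted p = 0.00084), and IAA gave 4.50%. All 4 labelled libraries thus fell within a narrow band far above the unlabelled ones.

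Between ZNF557 and ZNF267 stood ZNF3 with 4.91% ± 2.26, and below ZNF267 came ZNF791 with 4.20% ± 2.06, ZNF526 with 4.02% ± 1.77, ZNF430 with 3.71% ± 0.630 and ZNF398 with 3.65% ± 2.49 (SD, n = 3 each). Each of the 8 genes read at most 0.225% in any library without 4sU, and their neighbours in this order overlapped in their single values. ZNF526 is a zinc finger gene without a KRAB domain, whereas ZNF430 and ZNF398 carry one.

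**Figure D2:**
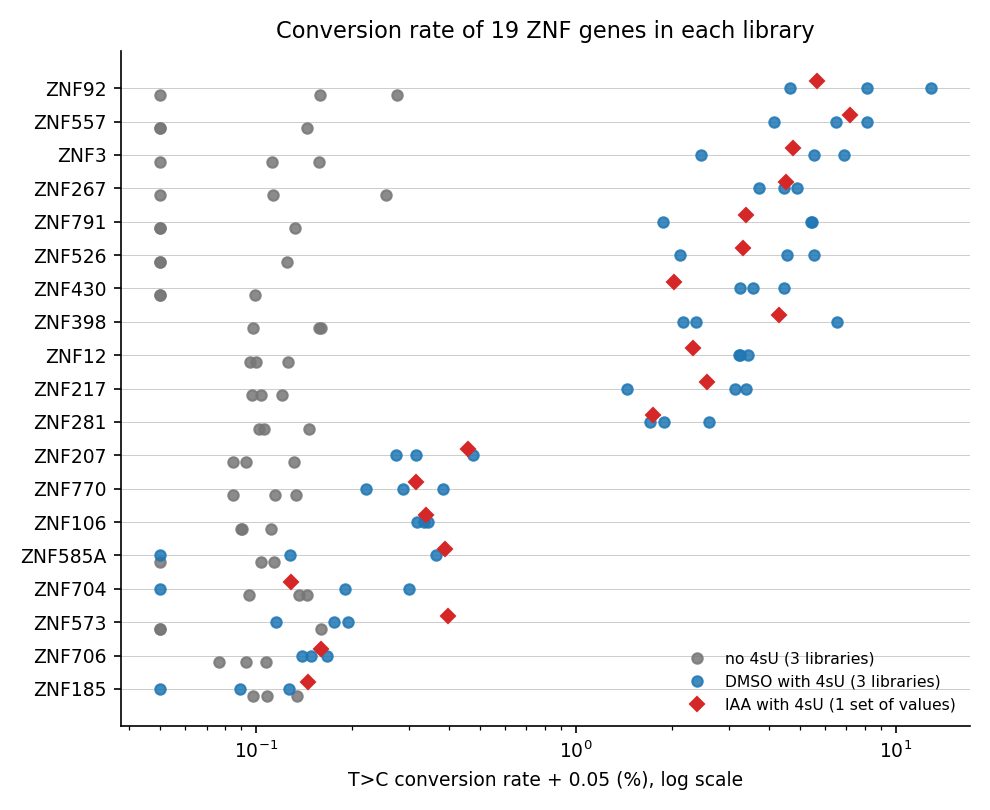
T>C conversion rate plus 0.05% on a log axis (horizontal) for 19 ZNF genes in 3 sets. The lowest and the highest set are ordered by mean rate. Grey points are the 3 libraries without 4sU, blue points the 3 with DMSO and 4sU, and the red diamond the IAA 4sU library. In the upper 14 genes the blue points lie clear of the grey ones, while in the lowest 5 genes all values are below 0.4%.

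At the other end, 14 ZNF genes were not called. The lowest mean belonged to ZNF185, the LIM domain gene, with 0.0846%, 0.0581% and 0.0479% without 4sU and 0%, 0.0769% and 0.0390% with DMSO and 4sU (0.0386% ± 0.0384, SD, n = 3; adjusted p = 0.37, limma). Its labelled and unlabelled values overlapped. ZNF706, a small protein with a single zinc finger, was the next lowest with 0.101% ± 0.0139 against 0.0423% without 4sU, a small change (log2 change 0.72, SE 0.25) that just passed the test (adjusted p = 0.045). The call depended on the setting. It was kept with a pseudocount of 0.002, a floor of 20 CPM or weighted intervals (adjusted p between 0.0128 and 0.044, limma) and lost with a pseudocount of 0.0001, without the CPM floor, with the replicate block or without any 1 replicate (adjusted p between 0.0577 and 0.18). ZNF573 (0.111% ± 0.0405), ZNF704 (0.130% ± 0.125) and ZNF585A (0.131% ± 0.163, SD, n = 3 each) completed the lowest 5 and were not called. The other 10 genes without a call, named here because of that outcome, were ZNF204P, ZNF252P, ZNF277, ZNF362, ZNF428, ZNF445, ZNF516, ZNF598, ZNF74 and ZNF75D.

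The most abundant ZNF mRNAs differed widely in rate. ZNF281 (chr1:200374068-200379184, - strand), a regulator that binds GC-rich promoters, was the highest of all with 108, 101 and 126 CPM without 4sU. Its rate was 0.0520%, 0.0557% and 0.0960% without 4sU and 2.56%, 1.84% and 1.65% with DMSO and 4sU (2.02% ± 0.480, SD, n = 3; adjusted p = 0.00022), and IAA gave 1.69%. It had 1604 to 1976 reads in the DMSO 4sU libraries, so its rate rests on many more reads than that of ZNF92. ZNF207 (81.3 CPM), which carries BUB3 to the mitotic spindle, had a rate of 0.305% ± 0.106 (adjusted p = 0.0048). ZNF770 (74.1 CPM) had 0.247% ± 0.0822 (adjusted p = 0.0097), ZNF706 reached 64.4 CPM, and ZNF106 (58.5 CPM), an RNA-binding protein, had 0.282% ± 0.0128 (adjusted p = 0.0015; SD, n = 3). Among these 5, ZNF281 alone lay in the top 10% of all genes.

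A list of zinc finger proteins that act on RNA, ribosomes or the spindle rather than on promoters was described separately. It was not exhaustive, since the RNA-binding ZNF106 was not on it and counted among the other ZNF genes. The list had 10 genes, of which 8 passed the floor (ZNF638 and ZNF385A did not). Of the 8, 7 rose (87.5%), beside 89.3% of the 122 other ZNF genes and 58.3% of all genes. The median rate of the 8 was 0.369%, against 0.711% for the 122 others. The 8 were also more abundant, with a median of 15.5 CPM against 8.77 CPM, and the part of abundance was not tested. ZNF593, a factor of the large ribosomal subunit, read 0.859%, 1.44% and 0.497% (0.932% ± 0.476, SD, n = 3; adjusted p = 0.0015). ZNF622, also a maturation factor of the large subunit, read 2.55%, 1.04% and 0.595% (1.40% ± 1.03; adjusted p = 0.0045). These ribosome factors lay above the median of all ZNF genes. The double-stranded RNA binding ZNF346 (0.358% ± 0.137), the splicing-associated ZNF326 (0.216% ± 0.0646) and the nucleolar ZNF330 (0.380% ± 0.161) lay below it. The exception to the rise was ZNF598, the ubiquitin ligase that marks collided ribosomes. It read 0.410%, 0.279% and 0.280% without 4sU and 0.454%, 0.492% and 0.344% with it (adjusted p = 0.28). ZNF598 had the highest mean rate of all ZNF genes without 4sU, 0.323%, and its groups overlapped.

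The partners through which KRAB proteins act had lower rates. All 17 genes of a co-repressor list were tested, 10 rose (58.8%, as against 58.3% of all genes), and their median rate was 0.149% with a range of 0.0897% to 0.347%. The highest was ATF7IP, the cofactor of SETDB1, with 0.347% ± 0.0465 (SD, n = 3; adjusted p = 0.0045). TRIM28 itself read 0.256%, 0.203% and 0.175%, a mean of 0.211% ± 0.0415 (adjusted p = 0.031), and SETDB1 read 0.0766%, 0.475% and 0.0953% (adjusted p = 0.20). No co-repressor gene reached the median rate of the ZNF genes. The co-repressor genes were also more abundant, with a median of 38.0 CPM against 9.01 CPM for the ZNF genes. The part of abundance in this difference was not tested.

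Zinc finger genes with other names had rates of a similar size. Of 86 symbols of the ZBTB, ZSCAN, ZKSCAN and ZFP families, 32 passed the floor, 30 rose (93.8%, against 58.3% of all genes) and their median rate was 0.648%. All 22 ZBTB genes, which join the fingers to a BTB domain, rose with a median of 0.699%, whereas 3 of the 5 ZFP genes rose, with a median of 0.362%. ZBTB7A was abundant (161 CPM without 4sU) and had 1.92% ± 0.311 (SD, n = 3; adjusted p = 0.00013). The highest of these genes was ZFP36, which codes for tristetraprolin, an RNA-binding protein with fingers of a different type that destabilises mRNAs, with 9.43%, 8.69% and 10.0%.

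Chromosome 19 held 34 of the 130 ZNF genes (26.2%), against 4.98% of tested genes with a position, and 12 lay on chromosome 7. The ZNF genes on chromosome 19 had a median rate of 1.19% and the 96 elsewhere one of 0.606%. Other genes of chromosome 19 had 0.234% (387 genes), near the 0.215% of other genes elsewhere (8023 genes). Of the 43 ZNF genes with the highest rates 18 lay on chromosome 19, and of the 43 with the lowest rates 7. On chromosome 19, 31 of 34 ZNF genes rose with 4sU (91.2%), as did 85 of 96 elsewhere (88.5%). Among other genes 51.4% rose on chromosome 19 and 58.2% elsewhere. The ZNF genes of chromosome 19 were also the scarcer ones, with a median of 7.48 CPM against 10.1 CPM, and the part of abundance in this difference was not tested. As these genes are related by duplication, reads of near-identical copies may have been divided between them, and their values are uncertain to that extent.

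Total mRNA of the ZNF genes was lower in the libraries with DMSO and 4sU than in those without 4sU. Because the floor was set on the CPM without 4sU, this is given as a description. In bulk RNA, less of an mRNA per cell and fewer cells that hold it cannot be told apart. The median difference was -0.34 on the log2(CPM + 1) scale, against 0.05 over all 8540 genes above the same floor. It was -0.32, -0.38 and -0.36 between libraries with the same replicate number. The value was negative for 108 of the 130 genes (83.1%) and for 41.8% of all genes, and in 59 of the 130 (45.4%) all 3 labelled libraries lay below all 3 others, against 10.1% of all genes. In none did they lie above, against 7.83% of all genes. When ZNF genes were instead chosen by 5 CPM in the DMSO 4sU libraries, 93 met the floor, 92 of them shared, and their median was -0.17.

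The CPM without 4sU that chose the genes are 1 side of this contrast, so the calls are listed beside their share among all genes and nothing is read from them. Of the 130 genes 13 were called lower (limma, 1.58% of all 11034 genes tested and 1.56% of the 8540 above the same floor) and 0 higher, with 51 lower and 0 higher at an unadjusted p under 0.05. Called lower were 12 by edgeR (1.62%), 27 by DESeq2 (3.36%) and 14 with the replicate number as a block (1.79%), and neither edgeR nor DESeq2 called a gene higher (0). The number changed when a replicate was left out, with 29 genes without replicate 1, 0 without replicate 2 and 0 without replicate 3. The calls over all genes moved likewise, to 4.32%, 0.227% and 0.236%.

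The largest falls were found among genes of high conversion rate. ZNF92 had 5.14, 7.10 and 8.0 CPM without 4sU and 1.60, 0.666 and 1.34 CPM with DMSO and 4sU (log2 difference -1.85), and 1.55 CPM with IAA. It passed the floor through the libraries without 4sU alone. ZNF217, a gene amplified in breast cancer whose product binds co-repressors, had 15.1, 12.6 and 12.8 CPM and then 4.65, 2.79 and 4.83 CPM (-1.57), and 7.83 CPM with IAA. In both, the groups did not overlap, but the floor was set on the values without 4sU, so nothing is read from this. ZNF12, a KRAB gene, was the best covered, with 27.6, 26.9 and 23.0 CPM without 4sU and 8.08, 10.9 and 10.0 CPM with it (-1.37). ZNF430 (-1.53) and ZNF786 (-1.43) completed the 5 largest falls. The conversion rates were 2.61% for ZNF217, 3.27% for ZNF12 and 3.15% for ZNF786. Like ZNF92, ZNF217 (mean of 4.09 CPM with DMSO and 4sU), ZNF430 (2.21 CPM) and ZNF786 (1.64 CPM) passed the floor through the libraries without 4sU alone. The remaining 8 calls, named because they were called, were ZNF124, ZNF180, ZNF200, ZNF267, ZNF304, ZNF503, ZNF696 and ZNF708. Of these, ZNF180, ZNF200, ZNF304, ZNF696 and ZNF708 also had means under 5 CPM with DMSO and 4sU. With the replicate block ZNF304 was lost, while ZNF3 and ZNF557 were added.

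The largest positive differences were small and not called. They belonged to ZNF428 (0.31), ZNF585A (0.31), ZNF384 (0.30), ZNF335 (0.28), a subunit of a histone methyltransferase complex, and ZNF787 (0.22 on the log2(CPM + 1) scale). That of ZNF335 was -0.18 without replicate 1. In ZNF384, for instance, 14.1, 5.85 and 6.05 CPM without 4sU overlapped with 15.6, 8.83 and 7.87 CPM with it. The list of RNA, ribosome and spindle genes had a median difference of -0.09 over 9 genes, with 0 calls by limma, edgeR or DESeq2 and 0, 0 and 1 gene lower at an unadjusted p under 0.05. The co-repressor genes had a median of 0.13 over 17 genes, with 0 calls and 2 genes higher at an unadjusted p under 0.05 by each of the 3 tools. In the ZBTB, ZSCAN, ZKSCAN and ZFP families the median was -0.40 over 58 genes, and 6 were called lower (1.58% of all genes tested). Among them was ZBTB43, with 35.9 ± 3.61 CPM without 4sU and 15.3 ± 1.46 CPM with it (SD, n = 3).

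The total mRNA difference went with the conversion rate. Across the 130 ZNF genes Spearman's rho between the mean rate with DMSO and 4sU and the log2 difference in CPM was -0.70, and across all genes it was -0.44. Both measures come from the same 3 labelled libraries, so this is a description without a test. The floor on CPM without 4sU also bears on the difference. Of the 130 genes, 92 had 5 CPM or more with DMSO and 4sU, and the others passed through the unlabelled libraries alone. Nothing is therefore read from the values below. In the 43 ZNF genes with the highest rates (median 2.10%) the median difference was -0.72 and 41 of 43 were negative. In the 43 with the lowest rates (median 0.282%) it was -0.08 and 27 of 43 were negative. On chromosome 19, where rates were higher, the median difference was -0.61, and elsewhere it was -0.28. Whether the conversions themselves took part in the lower read counts was not tested.

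Degradation of JUN was the comparison for which the experiment was designed. With 1 library of IAA 4sU there is no test, and a gene was counted as apart when its IAA value fell outside the span of the 3 DMSO 4sU libraries and differed from their mean by 1 log2 unit or more. For rates, the median over all genes was first subtracted within each library. By this rule 23 of the 130 ZNF genes stood apart in conversion rate, 7 higher (6.48% of all genes) and 16 lower (6.72% of all genes). Without the centring 13 were higher and 9 lower. Each DMSO 4sU library set against the other 3 labelled libraries in the same way gave 19, 26 and 18 ZNF genes. Over all genes the shares were 14.1%, 15.4% and 12.2%, and 13.2% for IAA. The IAA library thus differed from the rest about as much as a DMSO library did. The median difference of the ZNF genes was -0.07 on the log2(rate + 0.0005) scale, against -0.01 for all genes and 0.03, 0.16 and 0.02 for the DMSO libraries, each against the other 2.

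The order of the genes with IAA was close to that with DMSO, with Spearman's rho of 0.73, 0.78 and 0.77 against the 3 DMSO 4sU libraries. For 63 ZNF genes the centred IAA rate lay within the range of the DMSO libraries, for 29 (22.3%) above and for 38 (29.2%) below, beside 23.4% and 26.1% of all genes. Without the centring 35 lay above (26.9%; 29.3% of all genes) and 29 below (22.3%; 17.95% of all genes). The values that stood apart came from single genes. ZNF300, a KRAB gene, read 0.149%, 0.472% and 0.170% with DMSO and 0.961% with IAA. ZNF696 read 0.496%, 0.626% and 0.598% with DMSO and 1.59% with IAA, the gene of this set whose DMSO values agreed best among themselves. ZNF197 (log2 difference 1.34), ZNF252P (1.33) and ZNF260 (1.26) were the other large positive differences.

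In the other direction, ZNF204P read 1.45%, 0.141% and 0.216% with DMSO and 0% with IAA, where it had 67 reads. ZNF316 read 0.0912%, 0.628% and 0.524% and then 0.0555%, and ZNF655 read 0.868%, 0.421% and 0.736% and then 0.209%. In ZNF204P and ZNF316 1 DMSO library lay far from the other 2, whereas in ZNF655, a KRAB gene, the 3 DMSO values lay closer together and all well above that of IAA. ZNF22 (-1.60) and ZNF189 (-1.58) completed the 5 largest negative differences.

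In total mRNA 1 ZNF gene stood apart. ZNF428 had 32.1, 12.9 and 19.9 CPM with DMSO and 44.9 CPM with IAA (1.03 on the log2(CPM + 1) scale; 0.109% of all genes were apart in this direction and 0.0272% in the other). Its 3 libraries without 4sU had 22.2, 13.6 and 12.6 CPM, so it also varied within that group. It no longer met the rule without DMSO replicate 2 (0 genes). The DMSO libraries gave 0, 1 and 0 genes by the same rule (0.263%, 1.03% and 0.0544% of all genes). The median difference of the ZNF genes was -0.004.

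**Figure D3:**
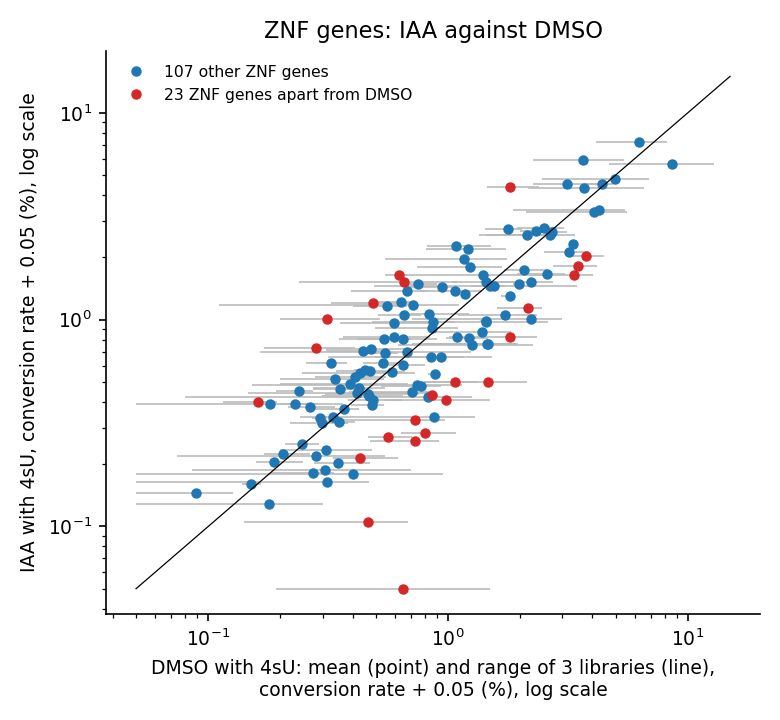
T>C conversion rate plus 0.05% with IAA and 4sU (vertical, log axis) against the mean with DMSO and 4sU (horizontal, log axis) for the 130 ZNF genes; horizontal lines span the 3 DMSO libraries and the diagonal marks equal rates. Most points lie along the diagonal, and the 23 genes in red stand apart from DMSO by the rule in the text, 7 above and 16 below.

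JUN acts as part of AP-1, a dimer, and the pattern TGANTCA, with N for any base, was taken as its motif. This motif was searched in the RefSeq promoters (GRCh38.p14, from 250 bases before to 50 after the start). As a pattern it reads the same on both strands. The middle base was A in ZNF185 and ZNF83 and C or G in the other ZNF genes with a match. Of the ZNF genes 113 matched a promoter by symbol, and 7 of these held it (6.19%), against 7.76% of all 27305 promoters and 4.22% of those of tested genes. The windows of 4 genes are shown, 5′ to 3′ on the strand of the gene with the motif in capitals, because ZNF92 and ZNF3 are among the 8 genes of highest rate, ZNF260 stood apart with IAA, and ZNF185 had the lowest rate.
ZNF92 (chr7:65373629-65373657, + strand): tggggtgggccTGACTCAgctcagggagg
ZNF3 (chr7:100081835-100081863, - strand): gccagccgcccTGAGTCAgcaaaccacag
ZNF260 (chr19:36528399-36528427, - strand): gcgcgaaaagcTGACTCAaaccgctgaac
ZNF185 (chrX:152914443-152914471, + strand): agaagccctgcTGAATCAagtgagaggag

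With IAA, the log2 difference in rate from DMSO was -0.61 for ZNF92, -0.06 for ZNF3, 1.26 for ZNF260 and 0.68 for ZNF185. The 4 genes thus went in both directions, but ZNF260 was shown because of its IAA value. The motif genes not shown were all lower, with -0.28 for ZNF512, -0.48 for ZNF576 and -0.69 for ZNF83. The median over the 7 genes with the motif was -0.28 in rate and 0.07 in CPM, and over the other 106 genes it was -0.09 and 0.01. A match of these letters does not show that AP-1 binds there, and with 1 IAA library neither difference can be tested.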

How the data were processed

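SLAM-Seq libraries of MCF10A cells were made with a QuantSeq 3′ kit. Reads were processed by the authors with a SLAM-Seq workflow in Nextflow. Their table lists 3′ intervals by RefSeq transcript, and the deposited rate is a fraction, T positions read as C over all T positions, with no background subtracted. The deposited CPM column was treated as a signal, because an interval used by several transcripts is listed, with its reads, more than once. The labels name build hg19, and the table holds no coordinates. Dividing each CPM by what 1 read is worth gave whole reads for 100% of values (tolerance 0.01 reads). T coverage was not used here, so the depth behind a rate in T positions, and its counting error, is unknown.

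RefSeq identifiers were matched to symbols through a RefSeq table of GRCh38.p14 (97.7% of rows). Each gene was represented by the interval with most CPM (34 of 130 ZNF genes had several). Gene positions are those of GENCODE on GRCh37. Rates were tested on log2(rate + 0.0005) by limma 3.58.1 in R 4.3.3 over genes with 5 CPM or more, and total mRNA on log2(CPM + 1) with TMM library sizes over genes with a mean of 1 CPM or more, both with trended and robust variances and Benjamini-Hochberg adjustment over all genes tested. Alternatives used edgeR 4.0.16 (quasi-likelihood) and DESeq2 1.42.0 on the recovered reads, other pseudocounts, filters and interval sums, and left out each replicate. The fits were tested on simulated data. The labels do not say whether replicates came from separate cultures, so p-values measure the spread between these libraries only.

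Deviations from the group means of libraries with the same number, with and without 4sU, correlated by 0.40, 0.34 and 0.45 in total mRNA and by -0.001, -0.015 and -0.0078 in rates (8540 genes). The numbers thus met the criterion for pairing (each above 0.1) in total mRNA only. The values given are from fits without the block, and the block is an alternative.

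Genes named are the 8 highest and 5 lowest in rate, the 5 most abundant, the 5 largest rises and falls in CPM, up to 5 in each direction apart with IAA, the 3 on either side of the floor, and the list of RNA, ribosome and spindle genes. The genes and lists were chosen with earlier results of these data known. A split by KRAB domain was planned and not made, as no protein table was used here. Calculations and plots used Python 3.11.15 with pandas 2.3.3, numpy 2.4.6 and scipy 1.17.1.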

Additional observations from a re-analysis of the deposited data

How the results depend on the processing

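The number of ZNF genes with a higher rate was 116 (58.3% of all genes). It was 25 of the 26 tested at a floor of 20 CPM, where 78.4% of all genes were higher. When a replicate was left out it was between 94 and 100, beside 33.1% to 39.6% of all genes. With a replicate block it was 107 (52.9% of all genes), although the numbers did not pair the rates. The median rate of 0.686% became 0.411% at a floor of 20 CPM and 0.990% at a floor of 1 CPM (301 genes), and it ranged from 0.598% to 0.738% when a replicate was left out. It was 0.494% for ZNF genes chosen by CPM with DMSO and 4sU. The 13 genes lower in total mRNA (1.58% of all genes tested) became 27 with DESeq2 (3.36%) and 14 with the replicate block (1.79%). At a mean of 5 CPM over the 6 libraries they became 6 of 109 (1.15% of all genes). When a replicate was left out they became between 0 and 29 (0.227% to 4.32% of all genes). The median CPM difference of -0.34 was -0.31 without TMM, -0.39 with a pseudocount of 0.25 and -0.17 for genes chosen by CPM with DMSO and 4sU, and between -0.41 and -0.33 when a replicate was left out. The 23 genes apart in rate with IAA became 13 with a pseudocount of 0.002 and 53 at a difference of 0.5, and between 26 and 30 when a DMSO replicate was left out. In CPM the 1 gene became 5 at a difference of 0.5, and between 0 and 1 when a replicate was left out. The median rate difference of IAA from DMSO, -0.07, was 0.063 without centring and between -0.081 and -0.026 when a replicate was left out. The median CPM difference, -0.004, was 0.065 without TMM and 0.011 with summed intervals, and between -0.026 and 0.0027 when a replicate was left out. The sign of both medians thus depends on the scaling. Apart from what a smaller or larger set of genes or libraries brings by construction, the cause of these changes was not tested. No paired analysis was possible for IAA because its 3 columns are 1 library. Among named genes, no called value changed sign, whereas some that were not called did. When a replicate was left out, the log2 change in rate ranged from -0.78 to 0.047 for ZNF185, -0.15 to 1.01 for ZNF428, -0.44 to 1.52 for ZNF585A and -0.23 to 0.76 for ZNF704, and with a pseudocount of 0.0001 that of ZNF704 was -0.17. The log2 difference in total mRNA then ranged from -0.048 to 0.019 for ZNF106, -0.091 to 0.025 for ZNF185, -0.13 to 0.059 for ZNF207, -0.34 to 0.0074 for ZNF326, -0.18 to 0.61 for ZNF335, -0.13 to 0.17 for ZNF593, -0.16 to 0.045 for ZNF704 and -0.0072 to 0.20 for ZNF706, and without TMM it was 0.032 for ZNF185, 0.011 for ZNF207 and 0.023 for ZNF704. In rate 18 values under an alternative lost the call, and in total mRNA 12 lost and 10 gained it. The depth of 16 to 34 reads behind genes such as ZNF92 limits their rates.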
